A study of Homo sapiens with 6 samples.

Results

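SEMA7A and 9 related genes were described in an established human bladder cancer cell line, 5637, in which an m6A eraser had been steered to HRAS transcripts. The 10 genes are 7 semaphorins (SEMA7A, SEMA3A, SEMA3B, SEMA3C, SEMA3F, SEMA4B and SEMA4C) and 3 plexins (PLXNA1, PLXNB2 and PLXND1), taken by name from a table of 60663 genes. All 10 passed the filter on low counts, which 19836 genes passed in all. The 3 libraries of the HRAS guide group (dCas13b+gRNA in the sample titles) came from cells given a guide RNA against HRAS. The 3 libraries of the control guide group (dCas13b+control) came from cells given a control guide. Per the series description, cells of both groups also received dCas13b-FTO, in which Cas13b, guided by RNA but unable to cut, carries FTO, the demethylase that takes the methyl mark m6A off adenosines in RNA, and were sequenced 48 h after transfection. No library without dCas13b-FTO was analysed here, and the labels do not say whether each library had its own culture. The p-values therefore reflect how far these libraries vary, and that variation may be purely technical. The list was drawn up with this contrast between guides already known, so the differences of the 10 genes between the guides describe them and are no independent test.

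Semaphorins are secreted, membrane-spanning or lipid-anchored proteins that share an extracellular sema domain and were first known as guidance cues for growing axons. Plexins are their main receptors, and carry a cytoplasmic domain that switches off small GTPases of the RAS and RAP families. Secreted semaphorins of class 3 usually bind neuropilins, which pair with plexins, while class 4 semaphorins span the membrane and bind mainly B-type plexins. SEMA7A is held at the cell surface by a glycosylphosphatidylinositol (GPI) anchor and signals through beta-1 integrins and plexin C1. In epithelial tumours these genes are known for roles in cell migration, invasion and vessel growth.

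SEMA7A (ENSG00000138623) lies on chromosome 15 of GRCh38, from 74409289 to 74433958 on the minus strand. The stretch of 250 bases before its start site is shown because SEMA7A is the gene on which the results turn. The sequence is credited to RefSeq (GRCh38.p14) and lies at chr15:74433959-74434208. It is written 5′ to 3′ on the strand of the gene, with capitals on each GGGCGG, the core of a GC box, on either strand.
SEMA7A promoter: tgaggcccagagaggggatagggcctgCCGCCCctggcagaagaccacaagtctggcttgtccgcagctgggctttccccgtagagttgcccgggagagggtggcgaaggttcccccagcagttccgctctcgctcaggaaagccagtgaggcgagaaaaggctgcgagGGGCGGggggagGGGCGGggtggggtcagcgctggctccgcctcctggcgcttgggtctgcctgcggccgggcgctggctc
It is 70.0% G or C, and holds 2 copies of GGGCGG on the strand of the gene and 1 on the other. This motif is found on either strand in 42.6% of 35116 RefSeq windows of the same length, and in each of the 9 member genes that have an entry. The 9 windows are 64.0% to 88.8% G or C, against a median of 58.0% over all windows. The RefSeq start used lies 5479 bases from the start of the longest GENCODE coding transcript for PLXNA1 and 5958 bases for PLXNB2. For the others it lies at most 300 bases away. GCGGGGGCG, the EGR motif, which can overlap a GC box, was found in 4 of the 9 (SEMA3C, SEMA3F, PLXNA1 and PLXND1), against 4.72% of all windows. TGANTCA, the AP-1 motif, was found in none of the 9, against 6.57%, nor was TATAAA, the TATA box, against 10.7%, or the CArG box, against 1.16%. TGACGTCA, the cAMP response element, was found in that of SEMA4C alone, against 1.65%. These are letter matches only, and no binding was measured.

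Base composition also matters below, since the libraries differed along it. The coding sequence is 61.5% G or C in SEMA7A and 62.9% in PLXNB2, but 44.4% in SEMA3C. For each gene, the 90 bases within a single coding exon whose composition is nearest that of its whole coding sequence are shown, from GENCODE release 29 transcripts, with capitals on runs of 4 or more G or C bases.
SEMA7A: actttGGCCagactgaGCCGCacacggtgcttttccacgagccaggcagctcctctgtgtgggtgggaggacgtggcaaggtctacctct
PLXNB2: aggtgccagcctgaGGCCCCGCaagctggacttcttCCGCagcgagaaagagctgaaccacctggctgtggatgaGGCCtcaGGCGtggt
SEMA3C: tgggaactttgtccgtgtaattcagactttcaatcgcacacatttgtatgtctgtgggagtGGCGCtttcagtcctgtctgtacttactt
The SEMA7A stretch lies in exon 2 of 14 at chr15:74418839-74418928, the PLXNB2 stretch in exon 3 of 37 at chr22:50290448-50290537, and the SEMA3C stretch in exon 5 of 18 at chr7:80818321-80818410, all on the minus strand of GRCh38. They are 61.1%, 63.3% and 44.4% G or C.

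Library totals ran from 24968702 to 32283370 counts. Levels are given as CPM, counts scaled to library size with TMM factors. HRAS itself gave 200, 167 and 184 CPM with the HRAS guide and 146, 230 and 169 CPM with the control guide (replicates 1 to 3 of each), and the groups overlapped. The libraries differed along GC content within both groups. A library's GC trend is Spearman's rho, over genes, of GC content with log2 CPM after the mean of the 6 libraries is taken off. It was 0.27, -0.49 and 0.06 in HRAS guide replicates 1 to 3 and -0.46, 0.61 and -0.21 in control guide replicates 1 to 3. All 11 epithelial markers examined, keratins and TP63 among them, were above 1 CPM, as were 1 of 6 immune (CD14), 3 of 6 fibroblast and muscle, 2 of 5 endothelial and 4 of 6 neural markers. Summed over the list, fibroblast and muscle markers came to 143 to 189 CPM with the HRAS guide and 156 to 215 CPM with the control guide. Nearly all of this was COL1A1, at 165 ± 22.8 CPM with the HRAS guide and 175 ± 30.9 CPM with the control guide (SD, n = 3 each). COL1A2, COL3A1 and DES had group means under 1 CPM, with COL3A1 at 1.79 CPM in control guide replicate 3. The neural sum was 13.9 to 16.5 CPM with the HRAS guide and 15.4 to 17.3 CPM with the control guide, with STMN2 at 0. The part of these markers in the results was not tested.

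SEMA7A RNA was lower with the HRAS guide in every pair of libraries. It stood at 143.5, 126.8 and 142.1 CPM with the HRAS guide (replicates 1 to 3), and at 152.4, 210.5 and 167.0 CPM with the control guide. The groups did not overlap, and the highest library, control guide replicate 2, is also the library of highest GC trend. The means were 137.5 ± 9.31 CPM with the HRAS guide and 176.6 ± 30.2 CPM with the control guide (SD, n = 3 each), a ratio of 0.778. The log2 fold change was -0.36 ± 0.12 (SE) and its 95% interval ran from -0.631 to -0.0927. In bulk RNA, fewer cells with the transcript and less of it per cell cannot be told apart.

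By edgeR's quasi-likelihood test with Benjamini-Hochberg adjustment over all genes at a threshold of 0.05, SEMA7A was not called, nor was any of the other 9 genes, where 0.0101% of all genes were called (2 genes, CAMK1G and HES1, both lower and named after their values were seen). At an unadjusted p under 0.05, 3.34% of all genes were found, and SEMA7A was the single member among them. DESeq2 and limma-voom also called 0 of the 10 members, where they called 0.144% and 0.00504% of all genes. DESeq2 called 0.0103% of all genes higher. A correction for GC content and transcript length, which removes from each library the smooth trend of its values with both, narrowed the spread of SEMA7A within both groups. Corrected levels were 138.9, 137.4 and 141.5 CPM in HRAS guide replicates 1 to 3, and 165.1, 183.4 and 170.3 CPM with the control guide. The HRAS guide libraries now lay within 5 CPM of each other and below every control guide library. The corrected means were 139.3 ± 2.08 CPM with the HRAS guide and 172.9 ± 9.42 CPM with the control guide (SD, n = 3 each), a ratio of 0.806. After the correction the log2 fold change was -0.31 ± 0.05 (SE; 95% interval -0.424 to -0.200). In this corrected fit SEMA7A passed the threshold as 1 of 10 members, where 0.200% of all genes were called, 0.190% lower and 0.0103% higher, and 6.26% were lower without overlap. The contrast had chosen the gene, so the call is a description.

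The SEMA7A difference depended on single libraries in size and in call. Its direction is fixed when 1 library is left out, since the groups do not overlap. Without control guide replicate 2 the log2 fold change was -0.22, and without control guide replicate 1 it was -0.46. After the correction the values with each library left out ran from -0.35 to -0.27. The corrected call ended without control guide replicate 3 and without HRAS guide replicate 1, 2 or 3, and stayed without control guide replicate 1 or 2. Among the 3 libraries of negative GC trend, 1 HRAS guide library stood against 2 control guide libraries with a log2 difference of -0.33, or -0.29 after the correction. Among the 3 of positive trend, 2 HRAS guide libraries stood against 1 control guide library with a difference of -0.56, or -0.39 after the correction. Each set has a single library on one side. The lone control guide library of the positive set has the highest GC trend of all, so the trend is not held fixed within the set, and no test was made.

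**Figure D1:**
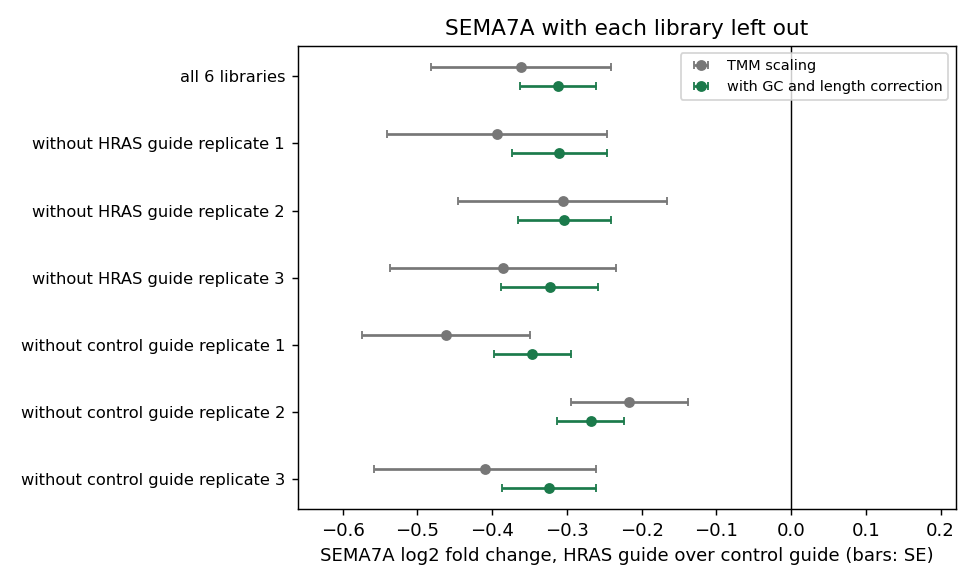
SEMA7A log2 fold change, HRAS guide over control guide, on the x axis (bars are SE), with all 6 libraries and with each left out in turn, under TMM scaling (grey) and with the GC and length correction (green). All values lie below 0, from -0.46 to -0.22 under TMM scaling and from -0.35 to -0.27 with the correction when a library is left out.

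Of the secreted class 3 semaphorins, none differed between the guides beyond the spread of the libraries. SEMA3A, which repels axons and endothelial cells through NRP1 and A-type plexins, stood at 78.5, 89.1 and 78.3 CPM with the HRAS guide (replicates 1 to 3), and at 101.4, 62.9 and 85.8 CPM with the control guide. SEMA3C, a pro-migratory ligand of neuropilins and PLXND1, stood at 134.7, 171.8 and 146.9 CPM with the HRAS guide (replicates 1 to 3), and at 199.6, 108.4 and 160.4 CPM with the control guide. For both genes the control guide libraries held the highest and the lowest value, so the HRAS guide libraries lay inside the control range. These are the members of low GC content, and they ran opposite to SEMA7A in control guide replicate 2, where both were lowest. The log2 fold changes were -0.03 ± 0.15 for SEMA3A and -0.05 ± 0.19 for SEMA3C (SE), with 95% intervals of -0.368 to 0.318 and -0.465 to 0.371. Without control guide replicate 1 both turned positive, at 0.14 and 0.17. After the correction the intervals were -0.218 to 0.138 for SEMA3A, which leaves out the corrected SEMA7A value of -0.31, and -0.353 to 0.241 for SEMA3C, which holds it. SEMA3C kept most of its spread after the correction, at 149.7 ± 13.99 CPM with the HRAS guide and 155.5 ± 35.7 CPM with the control guide (SD, n = 3 each). It was still highest in control guide replicate 1 (190.1 CPM) and lowest in control guide replicate 2 (118.8 CPM), the library of highest GC trend. The correction took SEMA3C as 46.1% G or C, the median of its annotated transcripts, while its longest coding transcript is 39.4%. It took SEMA3A as 42.5%, against 36.7%. The lengths it took were 582 bases for SEMA3C and 568 for SEMA3A, against longest coding transcripts of 5174 and 8225 bases. Corrected SEMA3A was also still highest in control guide replicate 1 (93.5 CPM) and lowest in control guide replicate 2 (72.5 CPM). What remains in both genes may therefore not be free of the GC trend.

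SEMA3B and SEMA3F, neighbours on chromosome 3 that are known as candidate tumour suppressors, were the least abundant members. SEMA3B stood at 13.7, 12.6 and 14.6 CPM with the HRAS guide (replicates 1 to 3), and at 12.3, 18.1 and 14.9 CPM with the control guide. SEMA3F, a ligand of NRP2, stood at 8.65, 7.62 and 7.10 CPM with the HRAS guide (replicates 1 to 3), and at 6.96, 9.17 and 8.86 CPM with the control guide. The groups overlapped for both. The log2 fold change was -0.15 ± 0.15 for SEMA3B and -0.10 ± 0.14 for SEMA3F (SE), with 95% intervals of -0.476 to 0.179 and -0.421 to 0.222, which hold the SEMA7A value of -0.36. After the correction the interval of SEMA3F, -0.320 to 0.179, still held the corrected SEMA7A value of -0.31, and that of SEMA3B, -0.271 to 0.0928, did not. Without control guide replicate 2 SEMA3B came to 0.00374, just above 0. Annotated exons of SEMA3F share 110 bases with the antisense gene SEMA3F-AS1, and those of SEMA3B share 62 bases with a microRNA gene, so a part of these counts is uncertain.

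Among the membrane-spanning class 4 semaphorins, SEMA4B was slightly lower with the HRAS guide before the correction, and SEMA4C, a ligand of PLXNB2, overlapped between the guides. SEMA4B stood at 236.2, 220.7 and 237.8 CPM with the HRAS guide (replicates 1 to 3), and at 239.4, 280.4 and 244.3 CPM with the control guide. Its groups did not overlap, by a margin of less than 2 CPM, as was so in this direction for 4.0% of all genes. No member was higher without overlap before the correction, where 4.81% of all genes were. The log2 fold change was -0.14 ± 0.09 (SE; 95% interval -0.330 to 0.0553). After the correction SEMA4B stood at 224.1, 242.1 and 235.3 CPM with the HRAS guide and at 268.4, 236.9 and 251.8 CPM with the control guide, and the groups overlapped. SEMA4C stood at 102.7, 86.3 and 100.5 CPM with the HRAS guide (replicates 1 to 3), and at 79.7, 111.0 and 89.3 CPM with the control guide. Its log2 fold change was 0.05 ± 0.13 (SE), and 0.10 ± 0.06 after the correction, with 95% intervals of -0.238 to 0.334 and -0.0377 to 0.232.

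The 3 plexins were held within narrow limits once the GC trend was taken out. PLXNB2, a receptor for class 4 semaphorins, stood at 961.8, 844.5 and 935.5 CPM with the HRAS guide (replicates 1 to 3), and at 813.8, 1060.0 and 901.4 CPM with the control guide. After the correction it stood at 924.4 ± 10.3 CPM with the HRAS guide and 909.5 ± 19.8 CPM with the control guide (SD, n = 3 each). For PLXNB2 this is a log2 fold change of 0.02 ± 0.04 (SE; 95% interval -0.0648 to 0.112). PLXNA1, the partner of neuropilins for several class 3 semaphorins, stood at 670.7, 596.2 and 664.2 CPM with the HRAS guide (replicates 1 to 3), and at 581.3, 719.3 and 616.4 CPM with the control guide. After the correction its groups separated, with 645.1 to 661.6 CPM with the HRAS guide against 628.0 to 628.7 CPM with the control guide. That is a ratio of 1.04 and a log2 fold change of 0.05 ± 0.04 (SE), and 5.97% of all genes were higher without overlap on this scale. PLXND1, the receptor of SEMA3E and a regulator of vessel patterning, stood at 154.9, 144.6 and 154.8 CPM with the HRAS guide (replicates 1 to 3), and at 140.6, 172.3 and 153.9 CPM with the control guide. With the correction, its log2 fold change was -0.02 ± 0.04 (SE; 95% interval -0.115 to 0.0824). For these 3 receptors the corrected intervals lie above that of SEMA7A and leave out a change of its size.

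**Figure D2:**
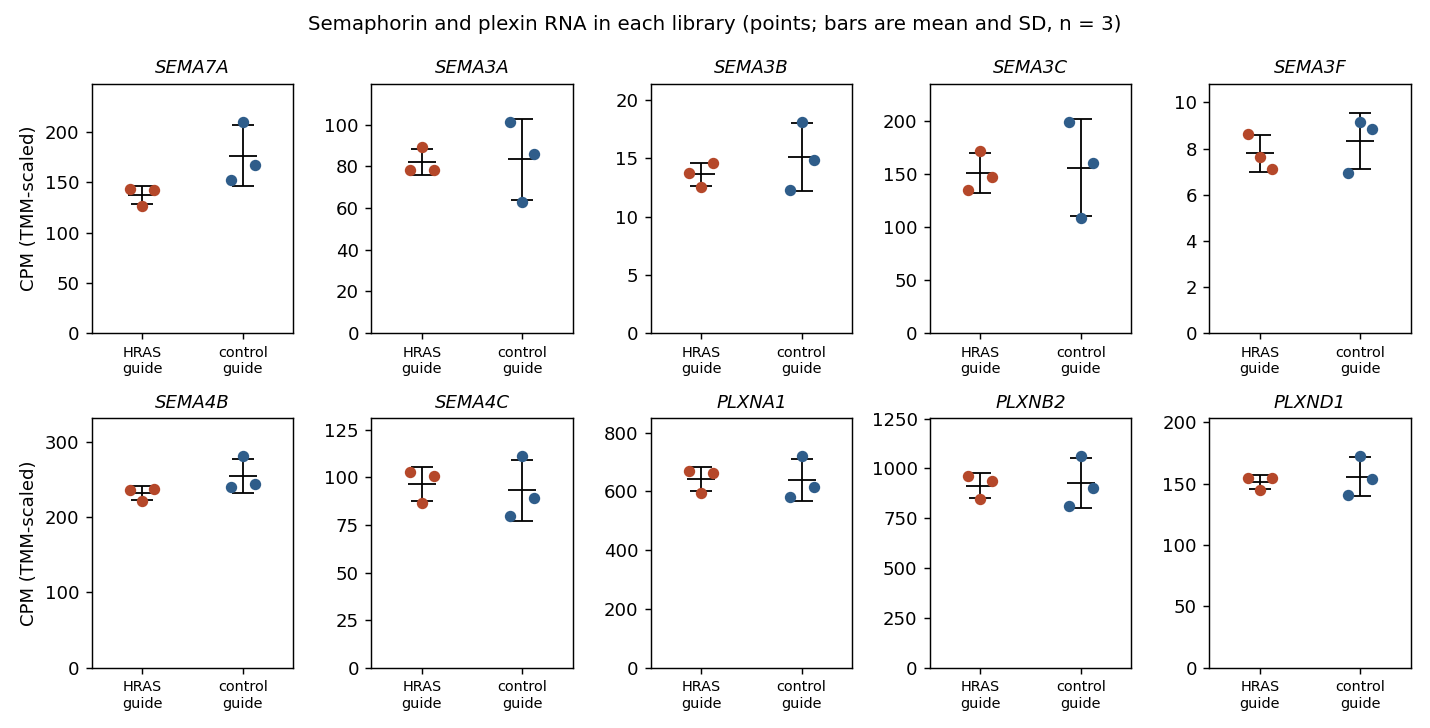
TMM-scaled CPM of the 10 genes in each library (points), with the HRAS guide (red) left of the control guide (blue) in each panel, and mean and SD (bars, n = 3). The groups do not overlap for SEMA7A and, narrowly, SEMA4B, and they overlap for the other 8 genes.

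**Figure D3:**
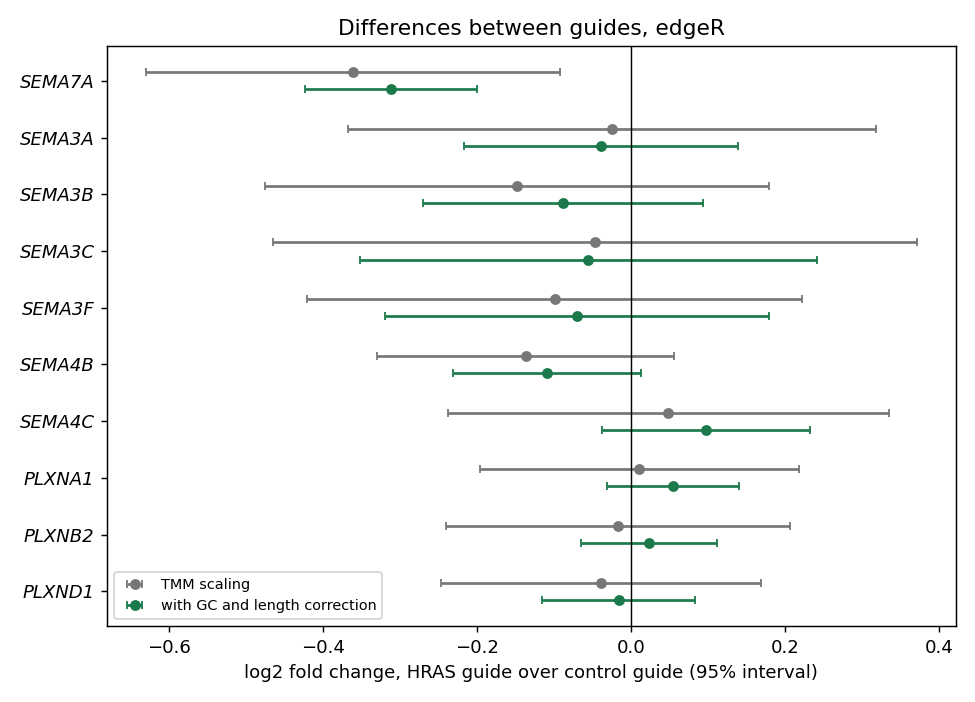
Log2 fold change, HRAS guide over control guide, on the x axis for each of the 10 genes, with 95% intervals from edgeR under TMM scaling (grey) and with the GC and length correction (green). SEMA7A is the one gene whose interval excludes 0 on both scales, at -0.36 and -0.31.

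As a list, 8 of the 10 genes had negative and 2 had positive log2 fold changes, where 50.5% of all genes were negative. The list median was -0.04, and that of all tested genes -0.0014. After the correction 7 were negative and 3 positive, where 50.0% of all genes were negative, and the list median was -0.05. The list was chosen on this contrast, so nothing is read from these shares.

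Across libraries, the genes moved with GC content, SEMA7A and SEMA3F least closely. In order of rising GC trend (HRAS guide replicate 2, control guide replicates 1 and 3, HRAS guide replicates 3 and 1, control guide replicate 2), PLXNB2 stood at 844.5, 813.8, 901.4, 935.5, 961.8 and 1060.0 CPM. In the same order SEMA3C stood at 171.8, 199.6, 160.4, 146.9, 134.7 and 108.4 CPM. After the first pair of libraries, PLXNB2 climbed at each step and SEMA3C dropped at each step, whichever guide the library had. SEMA7A stood at 126.8, 152.4, 167.0, 142.1, 143.5 and 210.5 CPM in this order. Within each guide it too was higher at each step of the trend, with 126.8, 142.1 and 143.5 CPM with the HRAS guide and 152.4, 167.0 and 210.5 CPM with the control guide. Pearson's r of log2 CPM with the GC trend over the 6 libraries was 0.666 for SEMA7A, 0.637 for SEMA3F, 0.980 for PLXNB2 and -0.963 for SEMA3C, as a description. The SD of log2 CPM over the 6 libraries shrank with the correction to 0.026 for PLXNB2, against 0.137 under TMM scaling. For SEMA7A it was 0.178 with the correction and 0.253 under TMM scaling, so that SEMA7A had the largest corrected spread of the 10 genes after SEMA3C (0.233). Both this spread and the r of SEMA7A are taken over both groups, so they include its difference between the guides. Within the groups its corrected SD was 2.08 CPM with the HRAS guide and 9.42 CPM with the control guide.

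**Figure D4:**
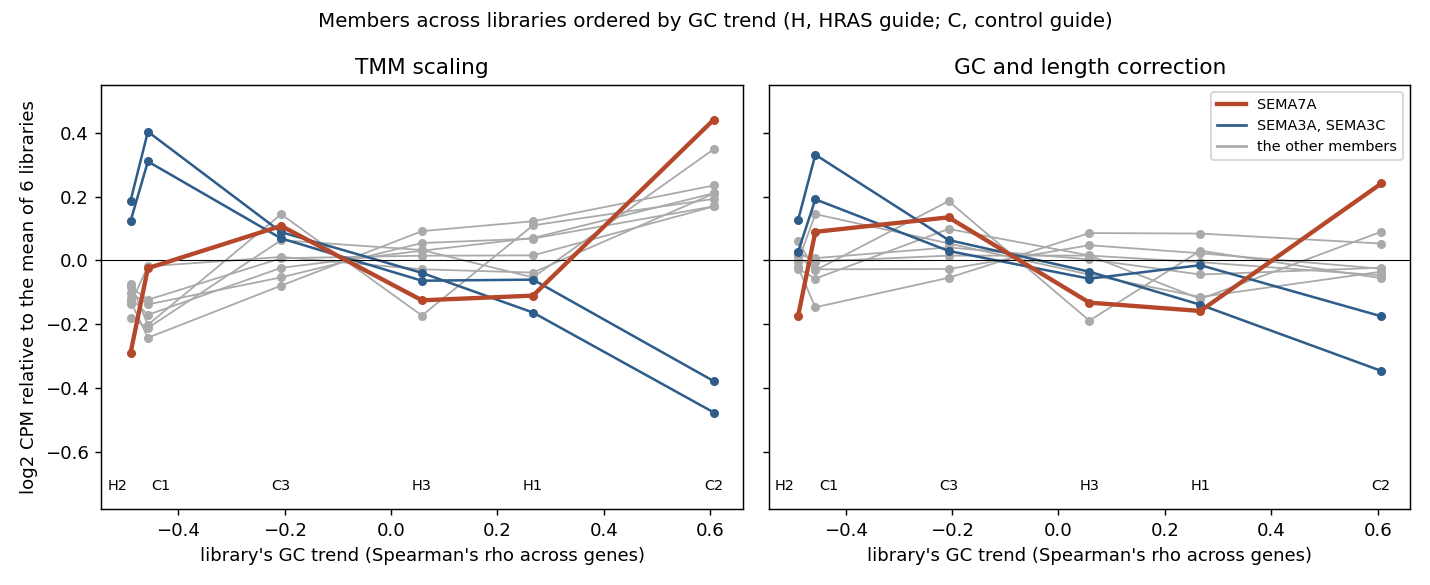
Log2 CPM of each of the 10 genes relative to its mean over 6 libraries (y axis) against the GC trend of the library (x axis, Spearman's rho across genes), under TMM scaling (left) and with the GC and length correction (right). Under TMM scaling SEMA3A and SEMA3C (blue) are lower and the other genes, SEMA7A (red) included, are mostly higher in libraries of higher trend. SEMA7A is lower in HRAS guide libraries (H) than in control guide libraries (C) in both panels.

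Levels of different genes were compared per kilobase of transcript. Divided by the median length of annotated transcripts, PLXNB2 was highest at 608 ± 41.0 CPM per kb with the HRAS guide and 615 ± 83.0 CPM per kb with the control guide (SD, n = 3 each). SEMA4B followed at 403 ± 16.4 and SEMA3C at 260 ± 32.5 CPM per kb with the HRAS guide, and SEMA7A stood at 56.8 ± 3.85 CPM per kb with the HRAS guide and 73.0 ± 12.5 CPM per kb with the control guide. The median length is 568 to 626 bases for SEMA3A, SEMA3C, SEMA4B and PLXND1, which have 7 to 20 annotated transcripts each. Divided by the longest protein-coding transcript instead, the order with the HRAS guide was PLXNB2 (143 ± 9.65 CPM per kb), PLXNA1 (71.0 ± 4.55), SEMA4B (60.8 ± 2.48), SEMA7A (40.7 ± 2.76), SEMA3C (29.2 ± 3.66), SEMA4C (27.2 ± 2.51), PLXND1 (21.4 ± 0.83), SEMA3A (9.96 ± 0.76), SEMA3B (4.60 ± 0.34) and SEMA3F (2.05 ± 0.21). On this scale SEMA3C and SEMA4C did not differ beyond their SDs. With the control guide the SDs of PLXNA1 and SEMA4B also overlapped, as did those of SEMA4B and SEMA7A and of SEMA3C, SEMA4C and PLXND1. PLXNB2 was highest and SEMA3B and SEMA3F were lowest with either length.

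**Figure D5:**
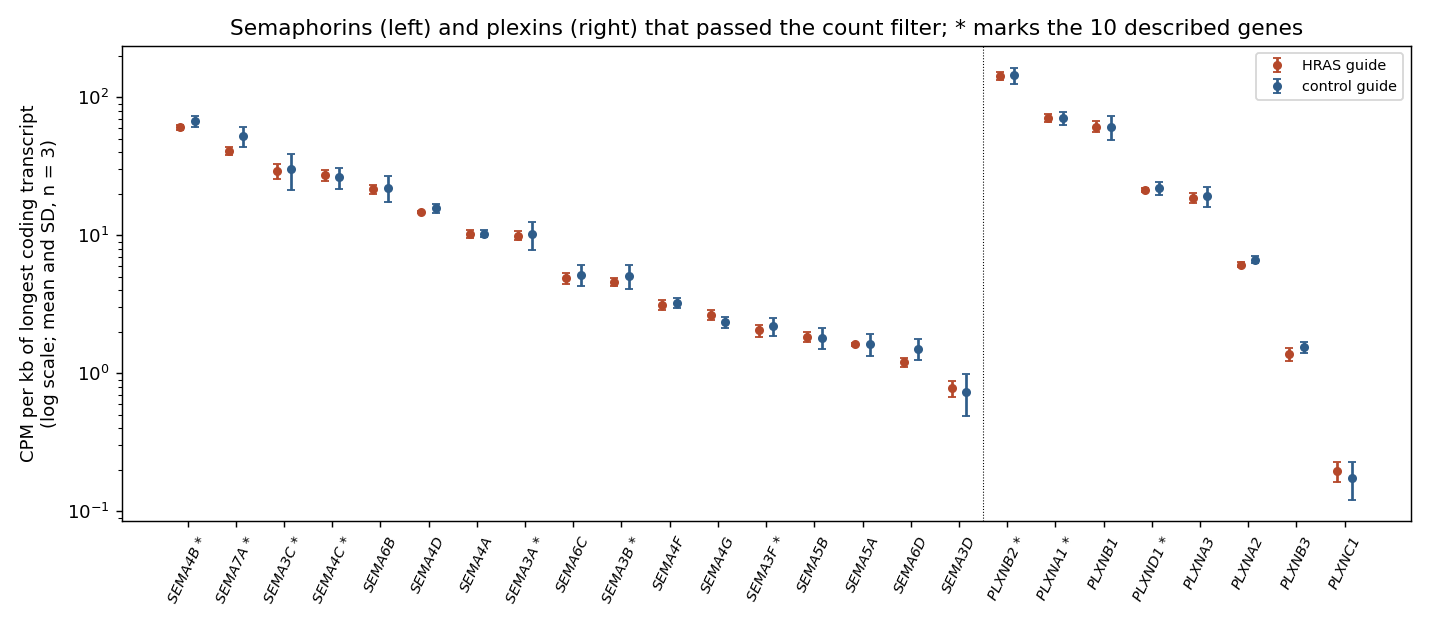
Levels of the 17 semaphorins (left) and 8 plexins (right) that passed the count filter, in CPM per kb of the longest coding transcript (log axis; mean and SD, n = 3), with the HRAS guide in red and the control guide in blue. SEMA4B and SEMA7A are the highest semaphorins and PLXNB2 the highest plexin, at 143 CPM per kb with the HRAS guide, while PLXNC1 is the lowest plexin shown.

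The rest of the family gave no call. Of 20 human semaphorin genes, 17 passed the filter, and SEMA3E, SEMA3G and SEMA6A did not, each with a mean of at most 0.324 CPM in a group. Of the 10 tested semaphorins outside the list, 0 were called higher and 0 lower by edgeR, with or without the correction, and 7 were negative and 3 positive before it. SEMA6D had the smallest p of these, at 7.33 ± 0.55 CPM with the HRAS guide and 9.22 ± 1.64 CPM with the control guide (SD, n = 3 each). Its log2 fold change was -0.33 ± 0.15 (SE, edgeR adjusted p = 1.00), close to that of SEMA7A in size but at a lower level. SEMA4G came next, at 0.17 ± 0.12 (SE). Of the 5 tested plexins outside the list, 0 were called, and PLXNA2 (-0.12 ± 0.09) and PLXNB3 (-0.16 ± 0.13) had the smallest p.

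The known receptors of SEMA7A were unequal in level. ITGB1, the beta-1 integrin, stood at 512 ± 63.1 CPM with the HRAS guide and 520 ± 113 CPM with the control guide, or 135 ± 16.7 and 137 ± 29.8 CPM per kb of the longest coding transcript (SD, n = 3 each). PLXNC1 stood at 1.43 ± 0.23 CPM with the HRAS guide and 1.28 ± 0.39 CPM with the control guide, or 0.195 ± 0.032 and 0.174 ± 0.053 CPM per kb. ITGA1, one of several alpha integrins that pair with ITGB1 and the only one in the list, stood at 9.98 ± 1.06 CPM with the HRAS guide and 9.10 ± 3.12 CPM with the control guide. SEMA3E, the direct ligand of PLXND1, was close to 0, at 0.058 ± 0.050 CPM with the HRAS guide and 0.011 ± 0.019 CPM with the control guide.

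Of 12 co-receptors and other receptors, 11 were tested and 0 were called in either direction, with 6 negative and 5 positive and a median log2 fold change of -0.02. NRP1, which binds SEMA3A, had the smallest p at 36.2 ± 3.66 CPM with the HRAS guide and 38.8 ± 4.53 CPM with the control guide, and CD72, a receptor for SEMA4D, came next at 0.16 ± 0.24 (log2 fold change, SE). Of 36 genes of intracellular plexin signalling, 35 were tested and 0 were called. Their median log2 fold change was -0.06, and 30 were negative and 5 positive, where 50.5% of all genes were negative. This list too was chosen with earlier results of these data known, and its genes were measured in the same 6 libraries. Nothing is therefore read from this share. FES, a tyrosine kinase linked to SEMA3A signalling that had the second smallest p of the list, stood at 5.76 ± 0.12 CPM with the HRAS guide and 7.18 ± 1.23 CPM with the control guide (SD, n = 3 each). Its log2 fold change was -0.32 ± 0.15 (SE, edgeR adjusted p = 1.00). Of 7 processing enzymes, all tested and 0 called, PCSK5 (0.25 ± 0.18) and FURIN (-0.07 ± 0.09), proprotein convertases, had the smallest p.

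The genes whose log2 CPM over the 6 libraries was most like that of SEMA7A, among 11910 other genes of at least 5 CPM on average, were MIDN (Pearson's r = 0.998), SRRM2 (0.997), HCFC1R1 (0.995), CSF3 (0.994) and RBM14 (0.992). After the correction they were LIF (0.995), HAS2 (0.994), MYLK2 (0.994), LMNA (0.993) and FOSB (0.992), with no gene in common. The 6 libraries share their GC trends, and with so few points r is a description. It is taken over both groups, so it also carries the difference between the guides for which SEMA7A was chosen. Corrected log2 fold changes were -0.465 (LIF), -0.308 (HAS2), -0.587 (MYLK2), -0.0715 (LMNA) and -0.402 (FOSB). For the genes found under TMM scaling they were -0.337 (MIDN), -0.102 (SRRM2), -0.378 (HCFC1R1), -0.340 (CSF3) and -0.0759 (RBM14). After the correction the first set had an r of 0.930 (MIDN), 0.657 (SRRM2), 0.960 (HCFC1R1), 0.987 (CSF3) and 0.140 (RBM14). Under TMM scaling the second set had an r of 0.9825 (LIF), 0.0842 (HAS2), 0.978 (MYLK2), 0.846 (LMNA) and 0.970 (FOSB). Of the 9 other members, SEMA4B was nearest to SEMA7A under TMM scaling (0.980) and SEMA3B after the correction (0.678).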

How the data were processed

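Total RNA of 6 libraries was sequenced. The authors' deposited values are whole-number counts per Ensembl gene, not normalized, in 1 table of 60664 rows. Of these, 1 row held no values and 60663 were used. Columns were matched to samples by guide and replicate number, although columns name FTO and sample titles dCas13b. HISAT2, StringTie, DESeq2 and hg38 appear in the submitters' processing notes, without versions or roles. Which tool counted, on which annotation release and with which strand setting is not given in the sources used here, so overlapping genes cannot be fully separated.

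Genes were filtered with filterByExpr, scaled by TMM and tested with edgeR 4.0.16 (quasi-likelihood F-test, two-sided, group alone, Benjamini-Hochberg over all genes, threshold 0.05) in R 4.3.3. SE was recovered from the F statistic. The GC and length correction fitted each library's log2 CPM (prior count 2) to splines (5 and 4 degrees of freedom, robust regression, genes above a mean log2 CPM of 1) of GC content and log10 transcript length from GENCODE 29, and entered edgeR as offsets for 19489 genes. Alternatives were DESeq2 1.42.0, limma-voom (limma 3.58.1), other scalings and filters, a replicate block and left-out libraries. Scripts were tested on simulated counts that held no GC or length trend, so this did not test how the fits or the correction handle such trends. Named genes are all members, the 2 list genes of smallest p where none passed, and the 5 genes most like SEMA7A. Of these, the gene of smallest p in the intracellular list, which edgeR called neither with nor without the correction, is not reported here. The receptors of SEMA7A, SEMA3E and the members nearest SEMA7A were added after their values were seen. The members and lists were chosen with earlier results of these data known.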

Additional observations from a re-analysis of the deposited data

How the results depend on the processing

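Of 19836 genes, 2 passed in edgeR. The count was 28 in DESeq2, 1 in limma-voom, 1 with DESeq2 size factors, 57 without a filter, 1 with a filter of 1 CPM in 3 libraries, 39 with the GC and length correction and 37 with GC alone. With each library left out it ran from 1 to 24 (without control guide replicate 2). With the correction it was 8, 17 and 7 without HRAS guide replicates 1, 2 and 3, and 36, 131 and 8 without control guide replicates 1, 2 and 3. GC alone was chosen after seeing the data, as was a covariate for libraries of positive against negative GC trend, with which it was 81, and 82 beside the correction. The replicate number as a block gave 1 gene, and 6 beside the correction, which SEMA7A did not pass. Same-numbered libraries did not deviate together under TMM scaling (correlations of -0.19, -0.29 and -0.06). These values carry the GC trends, which have opposite signs in same-numbered libraries. Whether the numbers pair the libraries therefore cannot be told from them.

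SEMA7A was negative in all 24 alternatives, from -0.46 to -0.22, and passed in 6, all with the correction, GC alone or the library sets. Its groups do not overlap, which fixes that direction when a library is left out. SEMA4B was also negative in all 24 and passed in none. With each library left out, SEMA3A ran from -0.19 to 0.14 and SEMA3C ran from -0.25 to 0.17, both highest without control guide replicate 1. SEMA3B ran from -0.28 to 0.00374 and PLXNB2 from -0.11 to 0.0921, both highest without control guide replicate 2. With the library sets as a covariate SEMA3C came to 0.15. The causes were not tested. With 3 libraries a group, the intervals of SEMA3A, SEMA3B, SEMA3C and SEMA3F include the SEMA7A value under TMM scaling. After the correction those of SEMA3C and SEMA3F still do. The corrected SE was 0.051 for SEMA7A, 0.055 (SEMA4B) to 0.13 (SEMA3C) for the other semaphorins, and 0.04 for each plexin. Whether a change of that size would have been called in the other members was not tested.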
